A study of Mus musculus with 8 samples.

Results

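This comparison set 2 lines of mouse embryonic stem cells against each other, the line without TRIM71 and the line that overexpresses MBNL1. Its members are 4 of the 8 libraries of the series, chosen by genotype alone: both libraries of the knockout and both libraries of the overexpression line, with no wild-type library in the test. Every difference below is the knockout minus overexpression, so "higher" means higher in the knockout, and a difference given without a unit is on the log2 scale. Both lines derive from cells of mixed 129xC57BL/6 background and share the allele Rosa26Cre-ERT2/BirA-V5, from which a tamoxifen-dependent Cre and the biotin ligase BirA are made. The knockout has the genotype TRIM71-/-, and the overexpression line was made by stable transfection of MBNL1::T2A::Puromycin, a construct that joins MBNL1 to a drug resistance gene through a self-cleaving peptide. All cells grew on gelatin in medium with serum and LIF, and no treatment or time point separates the groups. The promoter of the construct is not given in the sources used here. Whether the pair of libraries of a line represents separate clones, separate dishes or repeats is not in the labels. The p-values therefore measure only how far these libraries spread, and an effect of the altered gene cannot be told apart from a difference between clones.

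TRIM71 is an RNA-binding ubiquitin ligase of early embryos and stem cells that binds small hairpins in messenger RNAs and lowers their abundance or translation. MBNL1 is an RNA-binding protein that steers alternative splicing and RNA localization, mostly in differentiated tissues such as muscle, and Mbnl2 and Mbnl3 are its relatives. The series title places Mbnl1 under repression by TRIM71, so the comparison asks how far 2 lines with raised Mbnl1 mRNA, one lacking the repressor and one with the transgene, still differ in their transcripts.

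Stranded total RNA was sequenced as 75 nt read pairs and counted per gene, with 86508533 and 82301999 counts in the knockout libraries and 86336462 and 85068872 in the overexpression libraries, where 3 counts correspond to 0.0347 to 0.0365 CPM (counts scaled to a common library total). Levels are CPM after TMM scaling. Libraries of a line differed by a median of 0.0417 (knockout) and 0.0531 (overexpression) on the log2 scale, against 0.218 between the lines. Pou5f1, the core pluripotency factor, stood at 1181 and 1189.7 CPM in the knockout and 1132 and 1170.3 CPM in overexpression (log2 difference 0.04, edgeR adjusted p = 0.132, not passing). The 13 tested of 20 markers of fibroblasts and feeder cells summed to 71.2 and 72.8 CPM in the knockout and 50.7 and 46.4 CPM in overexpression (8 higher, 3 lower, where 30.9% of all genes tested were higher and 30.3% lower). Among them, Col1a1 was higher, at 1.83 and 2.05 against 1.65 and 1.13 CPM. Of the untested markers, Dcn, Lum, Postn and Fap had 0 to 2 counts in each library. Col3a1 had 17 and 7 counts in the knockout and 4 and 1 in overexpression, and Lox 9 and 6 against 3 and 1. The 9 tested of 14 markers of blood and endothelium summed to 66.8 and 68.4 against 58.3 and 54.0 CPM (7 higher, 2 lower), and the globin genes Hba-a1 and Hbb-bs had 0 counts in all 4 libraries. Single members differed widely, such as Col6a1, a collagen VI chain, at 3.46 and 3.81 against 0.102 and 0.0350 CPM, and Tek, the angiopoietin receptor of endothelium, at 6.88 and 7.7 against 0.667 and 0.594 CPM. The part of such cells in the differences below was not tested.

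The altered genes separated the lines in the direction of their labels. Trim71 (ENSMUSG00000079259.2), on the minus strand of mm10 chromosome 9 (114507133 to 114564369), had 103 and 107 CPM in the knockout and 652 and 675 CPM in overexpression. Its groups did not overlap, and the log2 difference was -2.66 (SE 0.0297, edgeR quasi-likelihood test with Benjamini-Hochberg adjusted p = 5.29e-22). Counts cover the whole gene and the labels do not name the deleted part, so the remaining reads cannot be placed. Mbnl1 (ENSMUSG00000027763.9), on the plus strand of chromosome 3 (60472830 to 60629750), had 49.4 and 51.6 CPM in the knockout and 195 and 197 CPM in overexpression, 3.88-fold more in overexpression (SE of the log2 difference 0.0299, edgeR adjusted p = 3.09e-20). Reads of the construct and of the endogenous gene were not told apart, so this difference is that of their sum. Mbnl2 was higher in the knockout, at 50.2 and 52.9 CPM in the knockout and 38.7 and 35.6 CPM in overexpression (log2 difference 0.47, edgeR adjusted p = 7.65e-09). Mbnl3, at 7.03 and 7.17 against 6.95 and 5.98 CPM, did not pass (log2 difference 0.13, edgeR adjusted p = 0.148), and passed when overexpression replicate 1 was left out (log2 difference 0.25, edgeR adjusted p = 0.0129).

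**Figure D1:**
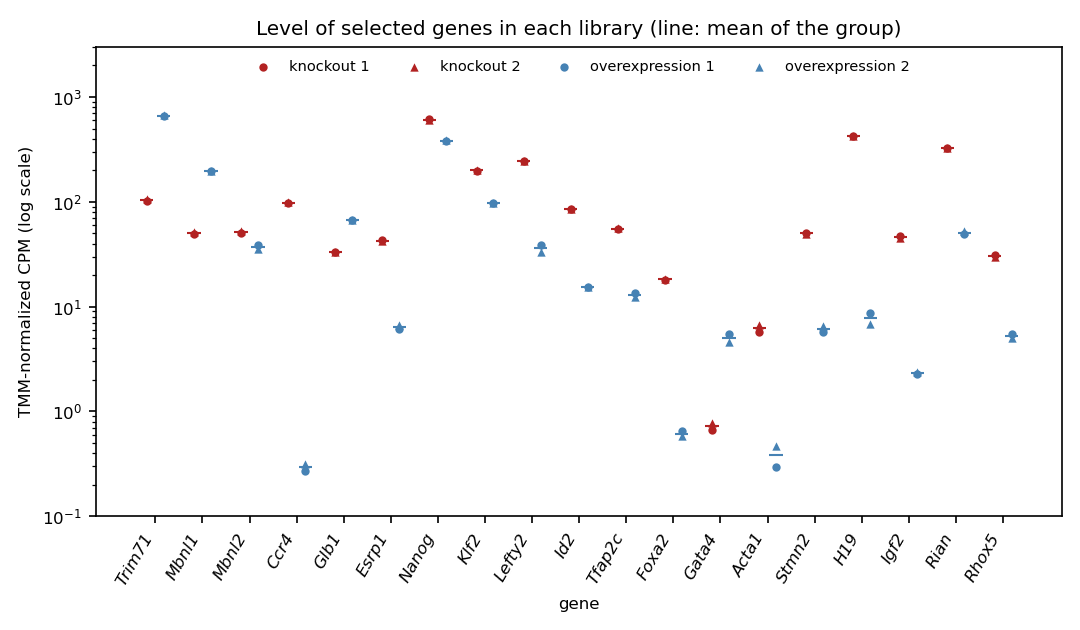
TMM-normalized CPM on a log scale for 19 genes named in the text, with each library as a point (circle for replicate 1, triangle for replicate 2) and each group mean as a line. The groups do not overlap for any gene shown. Trim71, Mbnl1, Glb1 and Gata4 are lower in the knockout and the others higher, from 1.39-fold for Mbnl2 to 335-fold for Ccr4.

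The widest difference among all named genes lay next to Trim71. Ccr4 (ENSMUSG00000047898.6, chromosome 9, 114490316 to 114504916, minus strand), a chemokine receptor gene of T cells, lies downstream of Trim71 on the same strand, with 2217 bp between the annotated genes. It stood at 98 and 98.7 CPM in the knockout and 0.271 and 0.315 CPM in overexpression, which was 335-fold more in the knockout (log2 difference 8.39, SE 0.0689, edgeR adjusted p = 3.70e-24). The overexpression libraries held 24 and 27 counts of Ccr4 and the knockout libraries 8306 and 8012, with no overlap. Counts per gene do not show where such transcripts begin. Glb1, the gene of lysosomal beta-galactosidase, lies 32.2 kb away on the other strand and was lower in the knockout, at 33.5 and 33.6 CPM in the knockout and 67.4 and 67.1 CPM in overexpression (log2 difference -1.0). Tmppe, which shares Glb1's strand and start region, differed by -0.42 and Crtap, a collagen-modifying cofactor, by -0.43. On the other side, Cnot10, a subunit of the CCR4-NOT deadenylase complex 21.5 kb from Trim71, differed by 0.09 and Dync1li1, a dynein light intermediate chain 124.4 kb away, by 0.01 (not passing, edgeR adjusted p = 0.727). Farther out on that side, Cmtm6 differed by -0.22 and Gpd1l by 0.46, and Cmtm8, a MARVEL domain protein 225 kb away, was higher at 2.32 and 2.61 against 0.791 and 0.594 CPM (log2 difference 1.83, edgeR adjusted p = 1.23e-08). Ccr4, Glb1 and the other neighbours were picked by position, after the value of Ccr4 had been seen.

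Among 17467 genes tested, 10691 passed at an adjusted p under 0.05 (61.2%), 5392 higher in the knockout (30.9%) and 5299 lower (30.3%). Most of these differences were small: 64.9% of the passing genes differed by under 1.5-fold. The 2-fold mark was reached by 2010 of them (11.5% of genes tested), of which 1139 were higher (6.52%) and 871 lower (4.99%). Restricting the test to genes of at least 1 CPM left 483 higher and 337 lower at that size. Large differences were more often higher in the knockout, with 84 higher and 7 lower at a log2 difference of 4 or more. The groups did not overlap for 10688 of the passing genes and for 79.7% of all genes tested. A lack of overlap given for a passing gene therefore does not set it apart. The shares of higher and lower genes given here are the background for each list count below.

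**Figure D2:**
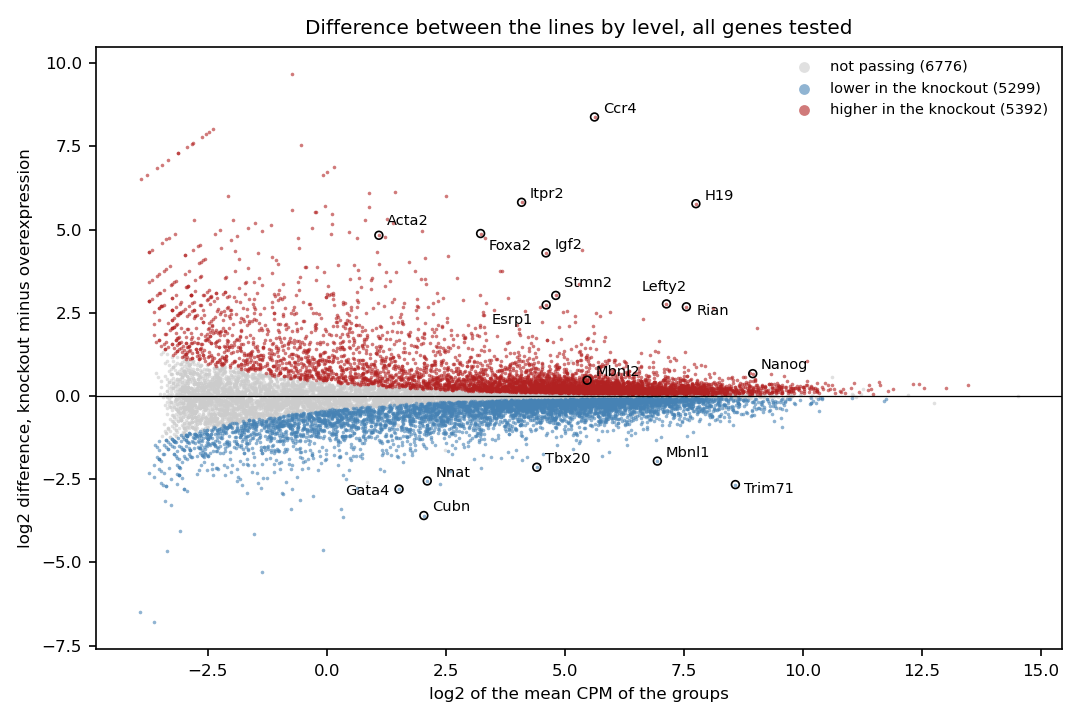
Log2 difference (knockout minus overexpression) against the log2 of the mean CPM of the groups for 17467 genes, coloured by whether a gene passed at an adjusted p under 0.05 in edgeR's quasi-likelihood test. Ccr4 at a log2 difference of 8.39 and Cubn at -3.59 mark the widest differences among the labelled genes, and the points in lines at the lower left and upper left are genes with few or no counts in a group.

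With Ccr4, the 12 highest genes of moderate or high level were Aldh3b2, Fat2, Itpr2, H19, Wif1, Slfn9, Pla2g4a, Foxa2, Acta2, Slc23a1 and Pof1b. Itpr2, an inositol trisphosphate receptor that releases calcium from the endoplasmic reticulum, stood at 33.8 and 33.2 CPM in the knockout and 0.542 and 0.641 CPM in overexpression, a difference of 56.6-fold (log2 5.82, edgeR adjusted p = 1.04e-20). Aldh3b2, an aldehyde dehydrogenase, stood at 5.04 and 5.64 against 0.0565 and 0.0932 CPM (log2 6.13), and Fat2, an atypical cadherin, at 11.1 and 11.2 against 0.169 and 0.175 CPM (log2 6.01). All 3 were under 1 CPM in both overexpression libraries. Wif1, a secreted inhibitor of Wnt proteins, stood at 4.64 and 4.72 against 0.102 and 0.128 CPM (log2 5.33), Pla2g4a, the phospholipase that frees arachidonic acid, at 7.93 and 7.53 against 0.203 and 0.291 CPM (log2 4.96), and Pof1b, an actin-binding protein of epithelia, at 19.6 and 19.2 against 0.757 and 0.676 CPM (log2 4.76). The 12 lowest were Cubn, Gata4, Trim71, Wnt6, Nnat, Pdgfra, Nt5e, Cemip, Pde8a, Tbx20, Crtac1 and Mbnl1. Tbx20, a T-box factor of the developing heart, stood at 7.82 and 7.9 CPM in the knockout and 33.9 and 35.5 CPM in overexpression (4.41-fold more in overexpression, edgeR adjusted p = 3.73e-17). Wnt6, a secreted Wnt ligand, stood at 1.4 and 1.48 against 8.96 and 8.94 CPM, Nt5e, the cell surface enzyme that makes adenosine, at 2.11 and 2.1 against 9.95 and 9.95 CPM, and Pde8a, a cyclic AMP phosphodiesterase, at 3.29 and 3.65 against 15.6 and 15.3 CPM. The knockout was 6.21-fold, 4.73-fold and 4.46-fold lower for Wnt6, Nt5e and Pde8a. The 12 highest and 12 lowest genes were picked among genes whose groups did not overlap, so a lack of overlap is no result for them.

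Transcripts of naive pluripotency, the state close to the inner cell mass, were mostly higher in the knockout. Of 22 listed genes, all tested, 13 were higher, 7 lower and 2 did not pass (median log2 difference 0.133, against -0.005 for all genes). Nanog, which sustains self-renewal, stood at 612 and 603 CPM in the knockout and 378 and 385 CPM in overexpression (log2 difference 0.67, edgeR adjusted p = 1.85e-14). Klf2, a Kruppel-like factor of the naive network, stood at 198 and 201 against 96.5 and 97.5 CPM (2.06-fold), and Manba, a lysosomal mannosidase used as a naive marker, at 156 and 154 against 64.6 and 67.1 CPM (2.35-fold). Nr0b1, an orphan nuclear receptor of the naive network, was higher by 0.77, and Dppa3, an oocyte and primordial germ cell gene, stood at 2.04 and 1.54 against 0.497 and 0.513 CPM. The groups did not overlap for these genes. Tbx3, a T-box factor of the same network, went the other way, at 70.7 and 70.5 against 138 and 143 CPM (log2 -0.99), as did Klf4 (-0.42) and Tcl1 (-0.61), a coactivator of the kinase AKT. Of 20 genes of general pluripotency, 9 were higher and 5 lower (median 0.057), and the lower count was 3 when either knockout library or chromosome 2 was left out. Sox2, the partner of Pou5f1, stood at 572 and 581 against 444 and 402 CPM, and Sall4, on chromosome 2, at 473 and 485 against 667 and 683 CPM. Of 20 genes of the formative and primed states that follow the naive one, 10 were higher and 7 lower (median 0.208). Without knockout replicate 1, 4 were lower. Fgf5, the classic epiblast ligand, was higher by 1.99, Zic2, a zinc finger factor, by 1.83 and Grhl2, a grainyhead factor of epithelia, by 1.72 (45.9 and 47.5 against 13.3 and 15.1 CPM). Fgf5 had a mean log2 CPM under 0, so its size rests on low counts. Pou3f1 (-0.76), Tcf15 (-0.84) and the de novo methyltransferase Dnmt3a (-0.8, 50.8 and 50.6 against 89.1 and 87.9 CPM) were lower.

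Regulators and markers of primitive endoderm, the lineage that lines the inner cell mass and builds the yolk sac, were mostly lower in the knockout. Of 19 genes, 11 were lower, 4 higher and 4 did not pass (median -1.145). With genes under 1 CPM left out, 7 were lower. Gata4 (ENSMUSG00000021944.11, chromosome 14, 63198922 to 63271692, minus strand), which specifies the lineage, had 0.661 and 0.776 CPM in the knockout and 5.42 and 4.58 CPM in overexpression (6.96-fold more in overexpression, edgeR adjusted p = 1.77e-12). Its partner Gata6 stood at 0.389 and 0.394 against 2.19 and 2.27 CPM (log2 -2.51) and Pdgfra, the receptor used as a surface marker of the lineage, at 0.920 and 0.678 against 3.94 and 3.68 CPM (log2 -2.25). The endoderm factors Sox17 (-2.21) and Sox7 (-1.04) and the endocytic adaptor Dab2 (-1.21) were also lower. Cubn, an endocytic receptor of visceral endoderm, stood at 0.389 and 0.875 CPM in the knockout and 9.48 and 5.67 CPM in overexpression (log2 -3.59, SE 0.635, edgeR adjusted p = 0.0408). Its groups did not overlap, but its SE was the largest of the primitive endoderm genes named here, and the call was lost without knockout replicate 1 (edgeR adjusted p = 0.216) or 2 (adjusted p = 0.189) and in the fit with a replicate block (edgeR adjusted p = 0.175). The list did not move as one. Foxa2 (ENSMUSG00000037025.7, chromosome 2, 148042877 to 148046969, minus strand), a forkhead factor of endoderm, node and floor plate, had 18 and 18.3 CPM in the knockout and 0.644 and 0.583 CPM in overexpression, 29.5-fold more in the knockout (edgeR adjusted p = 1.07e-18). Fst, the activin antagonist (1.83), Cited1 (1.21) and Sall1 (0.51) were the other higher members. In these bulk libraries fewer cells of a type and less RNA per cell cannot be told apart. Of 19 basement membrane genes, 9 were higher and 10 lower (median -0.105). Lama1, a laminin chain of early embryonic basement membranes, stood at 114 and 117 against 264 and 268 CPM (log2 -1.2), and Sparc, a matrix glycoprotein, at 168 and 168 against 281 and 283 CPM. Col4a2, a collagen IV chain, went the other way at 81.4 and 80.5 against 41.2 and 35.4 CPM (log2 1.08), and so did Col4a1 (log2 1.09, edgeR adjusted p = 0.0198), whose call was lost without knockout replicate 1 (edgeR adjusted p = 0.149) or 2 (adjusted p = 0.14).

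Genes of trophoblast and simple epithelium were mostly higher in the knockout: 10 of 16 tested were higher and 3 lower (median 0.349), and 7 of the higher ones passed at 2-fold or more. Tfap2c (ENSMUSG00000028640.7, chromosome 2, 172549593 to 172558622, plus strand), an AP-2 factor of trophoblast and germ cells, had 54.7 and 56 CPM in the knockout and 13.5 and 12.4 CPM in overexpression (log2 2.1, edgeR adjusted p = 7.02e-18). Gata3, a trophoblast factor, was higher by 3.0, and the keratins Krt7 and Krt19 of simple epithelia by 3.28 and 2.12 (14.3 and 15.9 against 3.22 and 3.71 CPM for Krt19). Gata3 had a mean log2 CPM under 0, so its size rests on low counts. Fgfr2, the receptor through which FGF4 acts on trophoblast, stood at 13.3 and 12.2 against 3.03 and 2.84 CPM. Cdx2, the defining trophectoderm factor, did not pass (log2 -0.5, edgeR adjusted p = 0.283), Eomes was lower (log2 -0.52), and Elf5, Hand1 and Plac1 had too few counts to test. Of 24 adhesion genes, 12 were higher and 10 lower (median 0.1). Cdh2, the neural cadherin, stood at 3.04 and 2.75 against 1.12 and 1.24 CPM, and Ocln, a tight junction protein, at 9.79 and 10.1 against 5.58 and 5.13 CPM. Itga5, the fibronectin receptor subunit (-0.57), and its ligand Fn1 (-0.56) were lower.

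Since MBNL1 is a splicing regulator, other genes of that kind were read as a list. Of 30 tested tissue-specific and CELF-type splicing regulators, 9 were higher and 14 lower (median -0.03). Esrp1 (ENSMUSG00000040728.11, chromosome 4, 11331933 to 11386783, minus strand), the epithelial splicing regulator, had 43 and 41.9 CPM in the knockout and 6.09 and 6.63 CPM in overexpression, 6.67-fold more in the knockout (edgeR adjusted p = 1.09e-18), and its relative Esrp2 was higher by 0.33. Nova2, a neuronal splicing factor, stood at 0.684 and 0.616 against 2.12 and 2.41 CPM (log2 -1.8), and Celf1, which acts opposite to MBNL proteins on many exons, lies on distal chromosome 2 and was lower at -0.47 (313 and 314 against 435 and 435 CPM). Rbm38 and Rbm20, RNA-binding splicing regulators of blood and heart, were lower (-0.87 and -0.86), Rbm38 also lying on distal chromosome 2. Among 33 SR and hnRNP proteins, the general splicing factors, 10 were higher, 6 lower and 17 did not pass (median 0.038), and the lower count was 10 under library-size scaling. Without overexpression replicate 1, 16 were higher. The widest of the higher ones, Hnrnpa1, stood at 939 and 922 against 633 and 607 CPM (1.5-fold). Splicing itself was not analysed here, since gene-level counts carry no exon usage.

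Genes of the Nodal and BMP pathways, in which secreted TGF-beta family ligands act through SMAD factors, were more often higher than lower in the knockout. Of 16 tested genes of the Nodal and activin pathway, 11 were higher and 4 lower (median 0.24). Lefty1 and Lefty2, secreted Nodal inhibitors that Nodal itself induces, stood at 166 and 168 against 33.4 and 34.5 CPM (4.93-fold) and at 247 and 244 against 38.9 and 33.2 CPM (6.81-fold, edgeR adjusted p = 1.48e-05). The groups did not overlap for either. Smad3, the signal transducer, was higher by 0.83 and Skil, a SMAD corepressor, by 0.92, whereas Nodal itself (-0.45), the receptor Acvr1b (-0.32) and the inhibitory Smad7 (-0.52) were lower. Of 22 genes of the BMP pathway, 13 were higher and 3 lower (median 0.317), with 7 higher once genes under 1 CPM were left out and 5 lower under library-size scaling. Id2, one of the helix-loop-helix inhibitors that BMP induces, stood at 85.7 and 86.1 CPM in the knockout and 15.3 and 15.3 CPM in overexpression (5.62-fold, SE of the log2 difference 0.0362, edgeR adjusted p = 1.32e-20). Id3 (1.17) and Id4 (1.42) were higher, whereas Id1, of the same family, did not pass (-0.06, edgeR adjusted p = 0.0829). Smad9, a BMP-specific SMAD, was higher by 2.51, the inhibitory Smad6 by 1.49 and the antagonist Nog by 2.16. Smad9 and Nog had a mean log2 CPM under 0, so their sizes rest on low counts. The ligand Bmp7, on distal chromosome 2, was lower, at 2.38 and 1.95 against 6.53 and 5.29 CPM.

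Wnt and FGF pathway genes split both ways. Of the Wnt, LIF and immediate early lists below, 64.3%, 64.7% and 60% of tested members passed. These shares lie near the 61.2% of all genes tested, of which 30.9% were higher and 30.3% lower. Of 28 genes of Wnt ligands, components and targets, 8 were higher and 10 lower (median -0.081), and 5 of each with genes under 1 CPM left out. Axin2, the feedback inhibitor that Wnt signalling induces, stood at 6.04 and 4.93 CPM in the knockout and 13.4 and 13.4 CPM in overexpression (log2 -1.28, edgeR adjusted p = 2.65e-11). Cdx1 (-1.54), Lgr5 (-1.54), T (-1.72) and Dkk1 (-1.06) were lower as well. The list does not separate targets from other members, so these genes do not stand for Wnt targets as a group. The ligands Wnt5a (2.99) and Wnt7b (2.7, 6.24 and 6.57 against 0.994 and 0.967 CPM) and the transcription factors Lef1 (1.62), Sp5 (0.96) and Tcf7l2 (0.83) were higher. Of these genes, Lgr5, T, Dkk1, Wnt5a and Lef1 had a mean log2 CPM under 0, so their sizes rest on low counts. Of 21 tested FGF and ERK feedback genes, 10 were higher and 5 lower (median 0.098). The ligand Fgf17 stood at 101 and 105 against 50.6 and 51.1 CPM and the phosphatase Dusp4 was higher by 1.01, while Etv4, an ETS factor downstream of ERK, stood at 119 and 122 against 190.3 and 192 CPM and the receptor Fgfr4 was lower (-1.86). Fgfr4 had a mean log2 CPM under 0. Of 17 genes of LIF signalling, which holds these cultures undifferentiated, 6 were higher and 5 lower (median 0.027). The feedback inhibitor Socs2 stood at 104 and 101 against 59.7 and 60.8 CPM, and the receptor Lifr at 127 and 126 against 185 and 188 CPM. Of 20 immediate early genes, 7 were higher and 5 lower (median 0.069). Ier5 was 6.99-fold higher, Klf6 2.34-fold and Jun 2.28-fold, whereas Egr1, reported elsewhere as a TRIM71 target, stood at 2.17 and 2.17 against 5.93 and 6.3 CPM.

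Actin and smooth muscle genes that serum response factor (SRF) controls held several of the widest differences. Of 23 tested genes of the SRF and YAP response, 13 were higher and 9 lower (median 0.203), 6 of the higher ones at 2-fold or more. Acta2 and Acta1, smooth and skeletal muscle actin, stood at 4.25 and 3.99 against 0.169 and 0.117 CPM (28.5-fold) and 5.73 and 6.69 against 0.294 and 0.466 CPM (16.3-fold, edgeR adjusted p = 5.53e-14). Tagln, an actin-binding protein of smooth muscle, stood at 12.7 and 13 against 1.63 and 1.83 CPM (7.44-fold). The groups did not overlap for any of them. Acta2 is also one of the fibroblast markers summed above. Thbs1, a matrix glycoprotein (1.79), Fhl2, a LIM-domain cofactor (1.58), and Myl9, a myosin light chain (1.35), were also higher. Fhl2 and Myl9 had a mean log2 CPM under 0. Cnn2 (-0.48), Flna (-0.46), Tagln2 (-0.38) and the YAP pathway kinase Lats2 (-0.57) were lower, and Srf itself did not pass (0.02, edgeR adjusted p = 0.725). The CArG box, the motif that SRF binds, was searched on both strands in promoter windows of RefSeq (build GRCm38.p6) from 250 bases before to 50 after the start. It was found in 7 of 19 list members with a window (36.8%) and in 186 of 11830 tested genes with one (1.57%). The list was put together as SRF and YAP response genes, so this excess is no result of these data. Acta2, Tagln and Thbs1 were not among the members with a match. Only 19 of the 23 tested members had a window and could be searched, so a missing match does not show that a promoter lacks the motif. The matches below, in capitals, are shown for 3 members that were higher and 1 that was lower, to set the motif beside the direction.
Acta1 (chr8:123894829-123894858, minus strand, match 73 bases before the start): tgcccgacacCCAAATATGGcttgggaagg
Fhl2 (chr1:43163973-43164002, minus strand, match 31 bases before the start): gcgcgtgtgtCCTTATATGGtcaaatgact
Myl9 (chr2:156775293-156775322, plus strand, match 161 bases before the start): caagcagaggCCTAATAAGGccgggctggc
Cnn2 (chr10:79988534-79988563, plus strand, match 56 bases before the start): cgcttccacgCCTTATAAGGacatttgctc

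Members with a match differed in both directions: Acta1, Fhl2, Myl9 and Actg1 (0.2) were higher, Cnn2 and Vcl (-0.1) lower, and Srf did not pass. A match is a description of these letters and not a measured binding site.

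**Figure D3:**
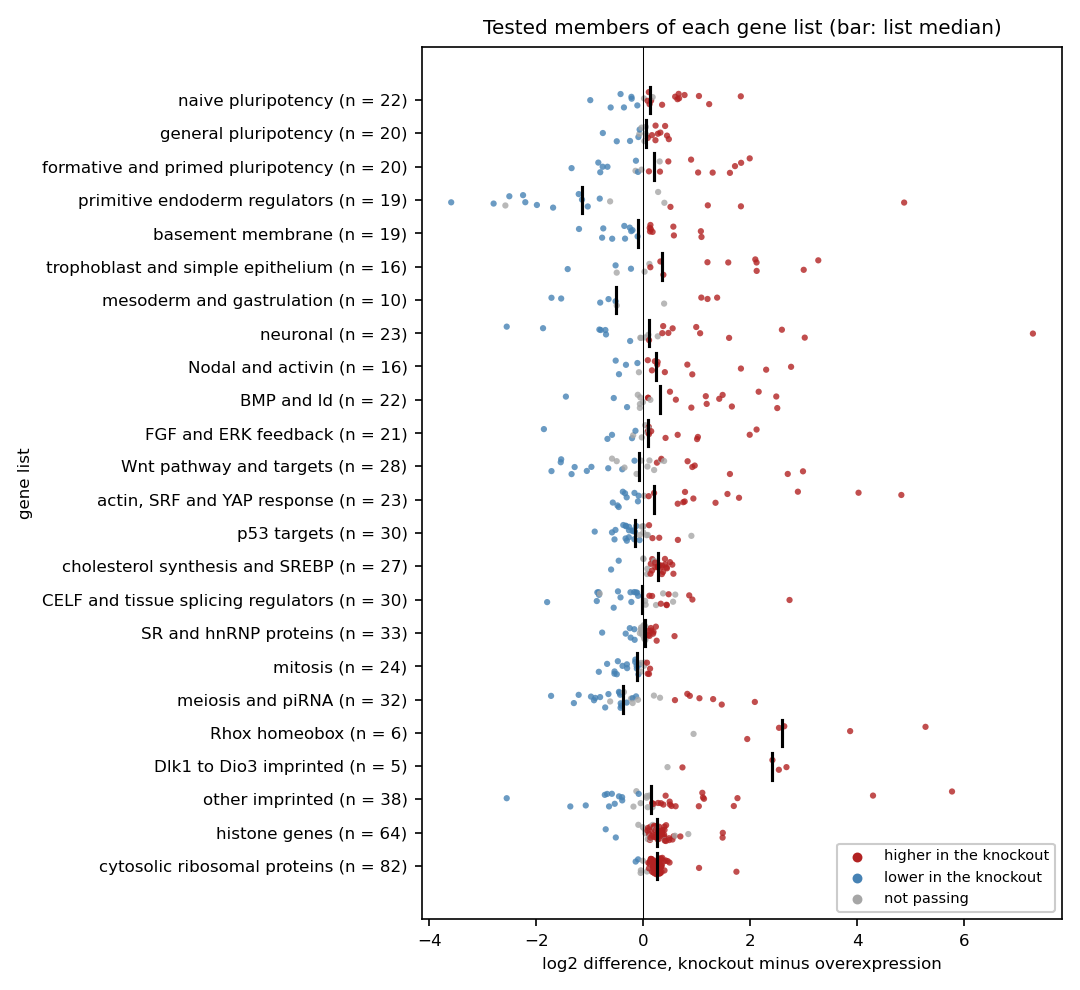
Log2 difference (knockout minus overexpression) of each tested member of 24 gene lists, coloured by call, with the median of the list as a black bar. Primitive endoderm regulators (median -1.145) lie furthest below 0 and the Rhox (2.591) and Dlk1 to Dio3 (2.418) genes furthest above it, whereas ribosomal protein genes cluster closely around 0.249. Rhox genes could reach the count filter through the knockout libraries alone. The point near 7 in the neuronal list is Dcx, with 20 and 18 counts in the knockout libraries and 0 in both overexpression libraries, so its position depends on how low counts are fitted.

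Neuronal genes went both ways. Of 23 tested, 11 were higher and 7 lower (median 0.109), and 4 were lower with chromosome 2 left out. Stmn2, a microtubule-destabilizing protein of growing neurites, stood at 50.6 and 49.4 CPM in the knockout and 5.75 and 6.55 CPM in overexpression (8.13-fold, edgeR adjusted p = 4.43e-19), and Gap43, a growth cone protein, at 7.5 and 7.6 against 2.47 and 2.48 CPM (3.05-fold). Sox1, a factor of the early neural plate, was lower at 5.44 and 5.34 against 20.8 and 18.7 CPM (log2 -1.87), as was Nnat, an imprinted proteolipid gene on distal chromosome 2, at 1.32 and 1.18 against 6.67 and 8.09 CPM (log2 -2.55). Of 10 tested mesoderm genes, 3 were higher and 5 lower (median -0.507), and these counts were 0 and 2 with genes under 1 CPM left out. Among 32 tested genes of meiosis and the piRNA pathway, 18 were lower and 7 higher (median -0.383). Meioc, needed for meiotic prophase, stood at 10.5 and 10.1 against 26.5 and 24.2 CPM and the Tudor protein gene Tdrd1 at 3.27 and 3.87 against 8.44 and 8.03 CPM. Dazl, a germ cell RNA-binding protein (10.1 and 9.8 against 3.57 and 3.6 CPM), and Hormad2, a meiotic chromosome axis protein (8.79 and 8.5 against 1.85 and 2.21 CPM), went the other way. None of the 15 listed 2-cell-stage genes reached the count filter.

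Imprinted genes, expressed from the copy of 1 parent only, held some of the widest differences at high level. H19 (ENSMUSG00000000031.11, chromosome 7, 142575529 to 142578143, minus strand), a maternally expressed noncoding RNA, had 423 and 426 CPM in the knockout and 8.64 and 6.79 CPM in overexpression (54.9-fold, SE of the log2 difference 0.107, edgeR adjusted p = 1.06e-05). H19 overlaps the hairpin gene Mir675 on the same strand, and how reads over both were counted is not given in the sources used here. Its neighbour Igf2 (chromosome 7, 142650766 to 142666816, minus strand), a paternally expressed growth factor that shares enhancers with H19, stood at 47.3 and 45.3 CPM in the knockout and 2.29 and 2.4 CPM in overexpression (19.7-fold, edgeR adjusted p = 9.51e-21). Both neighbours were thus higher in the same line, with no overlap of groups. Across 38 tested imprinted genes outside the Dlk1 to Dio3 region, 18 were higher and 12 lower (median 0.141), and 7 were lower with chromosome 2 left out. Sfmbt2, a polycomb gene (29.1 and 28.6 against 8.07 and 8.93 CPM), Impact, a translation regulator (211 and 218 against 95.8 and 99.2 CPM), and Peg3 (1.04) were higher. Of the lower ones, Nnat, Gnas (-0.67), Nespas (-1.08), Mcts2 (-0.72) and Blcap (-0.53) lie on chromosome 2.

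In the Dlk1 to Dio3 region of chromosome 12, whose noncoding RNAs are made from the maternal copy and host many microRNAs and snoRNAs, the long noncoding transcripts Rian, Meg3 and Mirg were higher in the knockout. Rian (ENSMUSG00000097451.5, chromosome 12, 109603940 to 109661716, plus strand), the snoRNA host, had 327 and 324 CPM in the knockout and 49.1 and 52.4 CPM in overexpression (6.41-fold, edgeR adjusted p = 1.04e-21). Meg3 stood at 62.5 and 62.1 against 11.4 and 11.9 CPM (5.34-fold) and Mirg, a microRNA host, at 52 and 54.7 against 8.88 and 9.48 CPM (5.81-fold). The paternally expressed Dlk1 was higher by 0.73, Dio3 did not pass (0.45, edgeR adjusted p = 0.0947), and Rtl1 had too few counts to test. Of 58 annotated hairpin genes in the region (chr12:109452823-109799460), 31 passed the count filter, and their log2 differences ran from 1.17 to 4.30 (median 2.468). The 13 tested of 23 snoRNA genes had a median of 2.681. These genes could reach the filter through the knockout libraries alone, so their common direction is not counted as support. Some lie within the exons or introns of the long transcripts. Total RNA counts over a hairpin gene do not measure the mature microRNA. Mir127, the hairpin gene with the most counts of the region, stood at 1.7 and 2.13 against 0.395 and 0.419 CPM and Mir433 at 1.12 and 1.24 against 0.226 and 0.268 CPM. RefSeq (build GRCm38.p6) gave mature sequences for 30 of the 31 hairpins. Those of the hairpins with the most counts and of pairs that share a seed are shown, with the seed (bases 2 to 8) in capitals.
mmu-miR-127-3p: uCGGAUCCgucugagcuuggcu
mmu-miR-433-3p: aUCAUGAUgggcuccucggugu
mmu-miR-3070-3p: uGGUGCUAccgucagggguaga
mmu-miR-3070-2-3p: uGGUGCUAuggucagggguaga
mmu-miR-1197-5p: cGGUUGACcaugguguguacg
mmu-miR-758-5p: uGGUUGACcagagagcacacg
mmu-miR-453: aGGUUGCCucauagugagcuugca
mmu-miR-496a-5p: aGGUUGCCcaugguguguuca
mmu-miR-675-5p, from the exon of H19: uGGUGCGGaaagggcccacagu

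Of the hairpins with shared seeds, Mir1197 differed by 2.87 and Mir758 by 2.03, and Mir453 by 2.83 and Mir496a by 2.36, all from levels under 1 CPM, and every tested hairpin of the region had a log2 difference above 0. The hairpin genes in the introns of Sfmbt2 (chr2:10370510-10595253) could likewise reach the filter through the knockout libraries alone, so their direction is no support either. Of 107, 16 passed it, with log2 differences from 1.62 to 4.08 (median 2.668), beside a log2 difference of 1.76 for Sfmbt2. Over all 136 tested hairpin genes of the genome, these 2 regions included, 55 were higher and 14 lower (median 0.235). The 2 regions held 31 and 16 of the 55 higher ones and 0 of the 14 lower ones, so this balance rests on them.

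**Figure D4:**
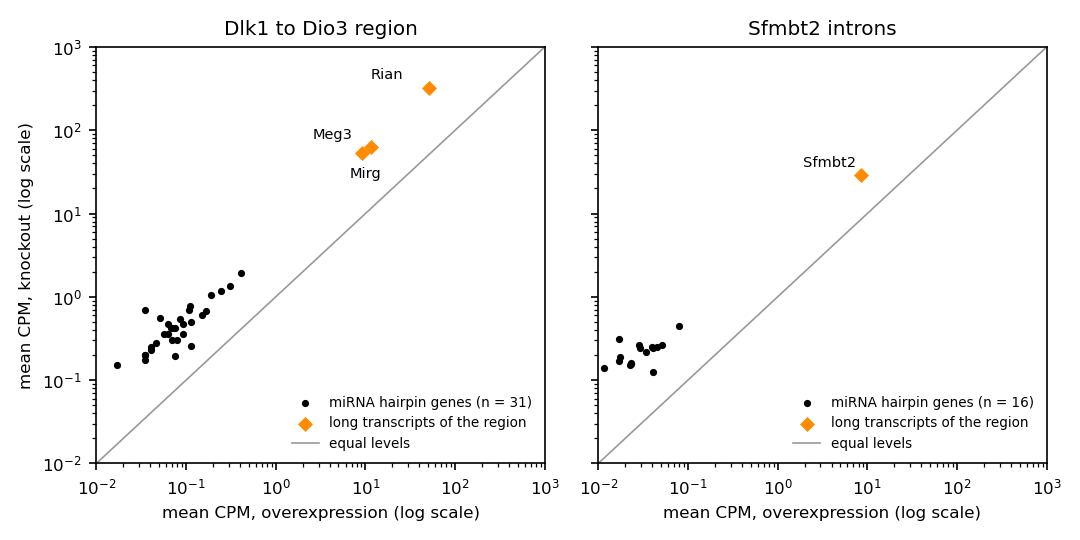
Mean CPM in the knockout against mean CPM in overexpression, both on log scales, for the tested hairpin genes (black points) and long transcripts (orange diamonds) of the Dlk1 to Dio3 region, left, and of the introns of Sfmbt2, right. All 31 and 16 hairpin genes lie above the grey line of equal levels, and all but 4 on the left lie under 1 CPM in the knockout.

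Rhox genes, a cluster of X-linked homeobox genes active in placenta and germ line, were higher in the knockout in 5 of 6 tested members (median 2.591), and 6 others had too few counts. Rhox5 (chromosome X, 37804842 to 37808876, plus strand) had 31 and 29.8 CPM in the knockout and 5.45 and 4.99 CPM in overexpression (5.82-fold, edgeR adjusted p = 1.81e-17) and Rhox6 had 3.34 and 3.48 against 0.0791 and 0.0932 CPM. The groups did not overlap for either gene. Rhox genes could reach the count filter through the knockout libraries alone, so their common direction is not counted as support. Rhox6 had 283 and 282 counts in the knockout and 7 and 8 in overexpression. Rhox5 had 482 and 428 counts in overexpression. Rhox10 did not pass (0.94, edgeR adjusted p = 0.0706), and with genes under 1 CPM left out 2 members were higher.

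Cytosolic ribosomal protein, histone, oxidative phosphorylation and cholesterol synthesis genes were mostly higher in the knockout by small amounts. Of 82 cytosolic ribosomal protein genes, 75 were higher and 2 lower (median 0.249), and library-size scaling gave 74 higher and 2 lower. Of 76 tested mitochondrial ribosomal protein genes, 31 were higher, 10 lower and 35 did not pass (median 0.054), and of 20 aminoacyl-tRNA synthetase genes 11 were higher and 3 lower (median 0.104). Rps12 stood at 1265 and 1247 against 908 and 922 CPM (1.37-fold) and Rps26 at 604 and 596 against 425 and 428 CPM (1.41-fold). The retrogene-like variants Rpl39l (3.35-fold) and Rpl10l (2.06-fold) differed more, but reads shared with their near-identical relatives make these values uncertain. Of 64 tested histone genes, 49 were higher and 2 lower (median 0.267), many of them close copies that share reads. Of 82 tested nuclear genes of oxidative phosphorylation, 54 were higher and 8 lower (median 0.138), with 44 and 11 under library-size scaling. Of 27 genes of cholesterol synthesis and its SREBP regulation, 20 were higher and 2 lower (median 0.27). Cyp51, the lanosterol demethylase, stood at 118 and 114 against 79.7 and 77.1 CPM (1.48-fold, edgeR adjusted p = 3.45e-12), and Insig1, the sterol-sensing regulator, at 75.7 and 76 against 54 and 49.9 CPM (1.46-fold). Pmvk, a mevalonate pathway kinase, differed by -0.46. The SREBP motif core TCACCCCAC, on either strand, lay in the promoter window of 1 of 18 members with a window, Hmgcs1 (5.56%), against 0.735% of tested genes.

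Stress, cell cycle and small RNA genes differed less evenly. Of 30 p53 targets, 18 were lower in the knockout and 4 higher (median -0.161). Phlda3, an inhibitor of AKT, stood at 33.3 and 34.6 against 50.04 and 51.7 CPM, Ddb2, a DNA damage sensor on chromosome 2, at 8.85 and 9.83 against 17.4 and 17.6 CPM, and Cdkn1a, the cell cycle inhibitor p21, differed by -0.26. Of 28 genes of the ATF4 and unfolded protein responses, 13 were higher and 12 lower (median -0.039). The ATF4 targets went both ways: Trib3 (-1.03) and Chac1 (-0.7), both on distal chromosome 2, and Ddit3 (-0.82), on chromosome 10, were lower, and Slc7a11, a cystine transporter, was higher by 1.37. Among the other members, the chaperone-side genes Xbp1 (1.06), Herpud1 (0.58) and Hspa5 (0.28) were higher. Of 24 genes of mitosis, 16 were lower and 4 higher (median -0.121). With the 6 on chromosome 2 set aside, 10 of 18 were lower (median -0.079). Of 36 genes of the G1/S transition, 14 were higher and 13 lower (median -0.032). Ccnd2, a D-type cyclin, stood at 65 and 58.1 CPM in the knockout and 12.1 and 14.2 CPM in overexpression (4.68-fold, edgeR adjusted p = 1.88e-06), whereas Ccnd3 stood at 277 and 280.3 against 403 and 412 CPM (1.46-fold less in the knockout). Of 24 genes of Lin28 and let-7, the microRNA that LIN28 restrains, 12 were higher and 7 lower (median 0.073). Mycn, a MYC family factor, stood at 196 and 204 against 90.1 and 88.4 CPM (2.24-fold) and Igf2bp3, an RNA-binding protein, at 123 and 127 against 67.6 and 68.5 CPM (1.84-fold).

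Genes reported as targets of TRIM71 went both ways, 5 higher and 6 lower of 11 tested (median -0.176). Mbnl1, which the series title itself names as repressed by TRIM71, is among the lower ones. Its side here follows the labels, since the other line carries an MBNL1 transgene. On a scale common to all 8 libraries, it had 48.6 and 50.7 CPM in the knockout and 25.8 and 26.1 in wild type. Plxnb2, a semaphorin receptor, stood at 171 and 170.2 against 114 and 114 CPM (1.49-fold), and the retinoblastoma relatives Rbl1 and Rbl2 were higher by 0.65 and 0.32. Lower in the knockout, beside Mbnl1 and Egr1, were Hmga2, a chromatin protein (-0.55), Cdkn1a and E2f7 (-0.18). Ago2, the Argonaute that TRIM71 has been reported to ubiquitinate, was lower as well, at 119 and 116 CPM in the knockout and 197 and 224 CPM in overexpression (log2 -0.84, edgeR adjusted p = 2.88e-04). These counts are of its RNA and do not measure the protein. Of 18 genes of microRNA processing, 7 were higher and 8 lower (median 0.012). Ago1 went the other way from Ago2, at 78.7 and 78 against 59.3 and 59.99 CPM, while Tnrc6c, a silencing scaffold, stood at 72.6 and 73.7 against 127 and 123 CPM.

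Differences were not spread evenly over the chromosomes. On chromosome 2, 826 of 1435 tested genes were lower in the knockout and 212 higher (57.6% and 14.8%, median -0.35), whereas the medians of the other autosomes ran from -0.03 to 0.107. The shift began near 70 Mb, a boundary chosen after the values were seen. From 70 Mb to the end of chromosome 2, 701 of 965 genes were lower and 65 higher (median -0.502, or 1.42-fold more in overexpression), and before it 125 of 470 were lower and 147 higher (median 0.009). All 12 bins of 10 Mb from 70 Mb on had medians of -0.269 or less. Bmp7, Sall4, Gnas, Celf1, Trib3, Chac1 and Aurka, a mitotic kinase (log2 -0.68), lie there and were lower, and the part of the shift in their differences was not tested. Nnat lies there too, but on a scale common to all 8 libraries it had 7.05 and 7.14 CPM in wild type, 6.59 and 8.01 CPM in overexpression and 1.3 and 1.16 CPM in the knockout, so it was low only in the knockout. Foxa2, Tfap2c and Thbs1 lie there too and were higher in the knockout. Without chromosome 2, 9598 genes of 16032 passed. On chromosome X, 291 of 624 genes were higher and 97 lower (median 0.173). All 4 tested entries of chromosome Y were lower in the knockout. Eif2s3y, a Y-linked translation factor gene, had 7 and 10 counts in the knockout libraries against 94 and 95 in overexpression. Uba1y had 25 and 23 against 38 and 46 counts, the pseudogene Mid1-ps1 5 and 7 against 154 and 161, and Gm47283 4482 and 4619 against 8825 and 8552. The Y-linked Kdm5d, Uty and Ddx3y had 0 to 3 counts in every library.

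**Figure D5:**
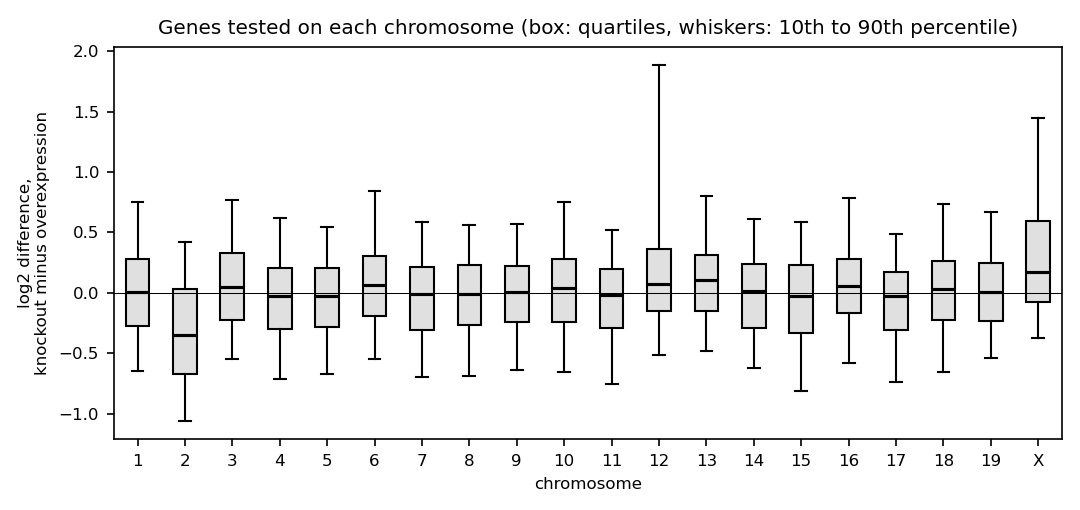
Log2 difference (knockout minus overexpression) of tested genes by chromosome, with the median as a line, quartiles as a box and the 10th to 90th percentile as whiskers. Chromosome 2 lies below 0 (median -0.35) and chromosome X above it (0.173), while the medians of the other autosomes lie between -0.03 and 0.107.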

How the data were processed

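Each deposited file gives the authors' raw counts of reads for 43346 genes in 1 library, and 4 of the 8 libraries were compared. Reads were aligned with STAR 2.5.0 to mm10, per the submitters' processing notes. Neither annotation release nor strand setting is given in the sources used here, so overlapping genes and near-identical paralogs could not be separated with certainty. By identifier without version, 42462 genes were matched to symbols and coordinates of GENCODE M21 and 884 were not.

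Counts of the 4 libraries were tested in R 4.3.3 with edgeR 4.0.16 (limma 3.58.1 and DESeq2 1.42.0 for alternatives). Of 26503 genes with counts, 17467 passed filterByExpr (minimum count 10, total 15). After TMM scaling, the robust quasi-likelihood fit had 2 residual degrees of freedom, and its common biological coefficient of variation was 2.785%. Each SE was taken as the log2 difference over the square root of F. P-values were adjusted by Benjamini-Hochberg over all genes tested, and genes passed under 0.05. With 2 libraries a line, the smallest two-sided p of an exact permutation test is 0.333, so the model that shares spread over genes was used. The procedure was also run on simulated counts with equal spread for every gene, unlike these libraries, so that run lends no support to the calls here.

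Libraries of a line differed by more than counting error (chi-square over its degrees of freedom 6.507 in the knockout and 10.13 in overexpression), so no library was taken as a repeat of another. Intervals and limits from counts cover counting error only.

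The members, gene lists and tests were chosen with earlier results of these data known. The text names Trim71 and the Mbnl genes, the 12 highest and 12 lowest passing genes with a symbol of their own, mean log2 CPM from 1 upward and groups that do not overlap, and up to 5 passing members per list. Other genes are named as list members, for balance or by position, after their values were seen. Passing genes without a symbol of their own that met the same level and overlap conditions (402) were not named. Alternatives were the scaling, the count filter, other tools, a replicate block, all 8 libraries in 1 fit, loci resembling ribosomal RNA left out, and each library left out in turn.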

Additional observations from a re-analysis of the deposited data

How the results depend on the processing

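The count of passing genes, 10691, lay between 8710 (DESeq2) and 11053 (no count filter) under the alternatives, and no passing gene reversed its direction in any of them. A filter at 1 CPM left 820 genes at 2-fold or more (483 higher, 337 lower) where 2010 (1139 higher, 871 lower) stood before, because fewer low-count genes were tested. Leaving out 1 library at a time gave 9185 to 10558 passing genes, with the lone library of a line assumed to vary like the others. Library-size scaling gave 4563 higher and 6113 lower. The replicate numbers did not pair the libraries (their differences correlated at -0.0729 over 12859 genes), and a fit with the replicate number as a block gave 10847 passing genes. Leaving out chromosome 2, an alternative chosen after seeing the data, gave 9598. Of 226 genes followed singly, by rule or as list members, 12 that passed lost their call in at least 1 alternative: Col1a1, Col4a1, Cox6c2, Cubn, mt-Co3, mt-Cytb, mt-Nd5, mt-Nd6, Snora68, Snord14a, Snord15a and Zeb2. The cause was not tested. Genes near 3 counts in both lines fell below the count filter and were not tested.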

Other observations

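Ptch1, Gli1 and Hhip, targets of Hedgehog signalling, in which a secreted ligand relieves the inhibition of SMO by PTCH1, were higher in the knockout. These 3 genes and the other pathway genes below were chosen after their values were seen, and no list of the pathway was counted. Ptch1, the receptor that the pathway itself induces, stood at 484 and 469 CPM in the knockout and 73.5 and 78.1 CPM in overexpression (6.29-fold, edgeR adjusted p = 1.04e-21), and Gli1, the other standard readout of the pathway, at 174 and 181 against 70.02 and 73.1 CPM (2.48-fold). Hhip, a ligand-binding antagonist that the pathway induces, stood at 8.18 and 8.1 against 1.01 and 1.35 CPM (6.91-fold). The groups did not overlap for these genes. The ligand gene Shh, near the limit of counting, had 13 and 21 counts in the knockout and 3 and 0 in overexpression (edgeR adjusted p = 4.07e-04). The components that transmit the signal differed less and the other way: Smo by -0.18, Gli2 by -0.26 and Gli3 by -0.58 on the log2 scale, and Sufu did not pass (-0.09, edgeR adjusted p = 0.224). Hey1, a repressor downstream of Notch, was 6.45-fold higher. Klhl13, an X-linked adaptor of a ubiquitin ligase, stood at 76.8 and 79.3 against 3.57 and 3.89 CPM (20.9-fold), and Frem1, a basement membrane protein gene outside the list used above, at 7.96 and 7.89 against 0.486 and 0.408 CPM (17.7-fold).

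Wild-type libraries took no part in the comparison, but their levels, on a TMM scale common to all 8 libraries and given without a test, show on which side each gene lay. Mbnl1 stood at 25.8 and 26.1 CPM in wild type, below 48.6 and 50.7 in the knockout and 193 and 195 in overexpression. Some genes lay on opposite sides of wild type in the 2 lines. H19 stood at 46.8 and 45 CPM in wild type, with 416 and 419 in the knockout and 8.55 and 6.73 in overexpression. Foxa2 stood at 4.24 and 2.95 CPM, with 17.7 and 18 and with 0.637 and 0.577. Ptch1 stood at 325 and 277 CPM, with 476 and 461 and with 72.7 and 77.3. Other genes were near wild type in 1 of the lines. Stmn2 (50.8 and 54.1 CPM in wild type), Rian (353 and 392) and Klf2 (199 and 188) were near wild type in the knockout, at 49.7 and 48.5, 321 and 319, and 195 and 198 CPM, and lower in overexpression, at 5.69 and 6.49, 48.6 and 51.9, and 95.4 and 96.5 CPM. Tbx20 was near its wild-type 8.15 and 7.53 CPM in the knockout, at 7.69 and 7.77, and higher in overexpression, at 33.5 and 35.2 CPM. Not all of these shifts were particular to overexpression. In the line of the series with a mutated Mbnl1 3'UTR, Mbnl1 stood at 28.6 and 27.5 CPM. Stmn2 was low there too, at 4.14 and 3.91 CPM, and Tbx20 was raised, at 16.1 and 16.3 CPM. Rian (332 and 324 CPM) and Klf2 (191 and 194 CPM) were near wild type in that line. Ccr4 and Rhox5 were near wild type in overexpression (0.268 and 0.312 against 0.215 and 0.212 CPM, and 5.39 and 4.94 against 5.13 and 5.18 CPM). By contrast, Sfmbt2 was below its wild-type 62.4 and 56.9 CPM in both lines, at 28.6 and 28.2 in the knockout and 7.98 and 8.84 in overexpression.

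Over the same 8 libraries, the median log2 difference from the wild-type mean for 690 genes of chromosome 2 from 70 Mb on, each with a mean of at least 1 CPM, was 0.493 and 0.489 in the overexpression libraries and -0.004 and 0.001 in the knockout libraries, with a pseudocount of 0.05 CPM. For 437 genes of chromosome X it was -0.147 and -0.142 in overexpression and 0.015 and 0.017 in the knockout. For 470 genes of chromosome 13 it was -0.106 and -0.081 in overexpression and 0.024 and 0.011 in the knockout.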
